A study of Drosophila melanogaster with 12 samples.

Results

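The question was whether high sugar food changed each transcript by the same amount in larvae reared on it as in larvae moved to it briefly. For each gene the change on high sugar food in wandering larvae was compared with the change in mid-L3 larvae on the log2 scale, and the difference between them is called the interaction here. All 12 of the 12 arrays of the series entered the comparison, 3 biological replicates in each of 4 groups, and 8387 genes were tested. A value above 0 means that the change on high sugar food was more positive in wandering larvae, and a value below 0 that it was more positive in mid-L3 larvae.

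All 4 groups were whole male larvae of Canton-S, a wild-type Drosophila melanogaster strain, on a semi-defined food whose sugar was sucrose. Wandering larvae, which have stopped eating and not yet formed a puparium, had been on 0.15 M (control) or 1 M (high sugar) sucrose since hatching. Mid-L3 larvae had been on control food until early in the third instar and then moved for 12 h to fresh food, either control or high sugar. Larvae on 1 M sucrose are called sugar-fed. Stage, exposure time and whether the animals were still feeding therefore differed together between the arms, and their parts in any value here cannot be told apart. In whole larvae, fewer cells of a type and less RNA per cell cannot be told apart either.

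Larvae turn dietary sugar into glycolytic intermediates, trehalose, glycogen and triglyceride, mostly in the fat body, which combines roles of liver and adipose tissue. The sugar-sensing factor Mondo, partner of Mlx, controls many of these genes together with its target sugarbabe (sug). The larval gut makes peptidases, lipases and carbohydrases, and fat body, gut and Malpighian tubules make cytochrome P450 and glutathione transferase enzymes. Animals that stop feeding before pupariation live on what they have stored.

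The stage labels matched the sum of a marker list, though not every member of it. The summed intensity of 12 salivary gland genes, among them glue proteins that wandering larvae make in bulk, was 55644 to 61636 on the wandering arrays. On the mid-L3 arrays it was 8937 to 21999. Its member ng2 went the other way, with a mean of 50.1 in wandering controls and 1511 in mid-L3 controls. On high sugar food ng2 had means of 517 in wandering and 3319 in mid-L3 larvae. Rank correlations between arrays were 0.966 to 0.980 within a group, 0.962 to 0.974 across diets of a stage and 0.830 to 0.876 across stages. Spread was widest in sugar-fed wandering larvae, with a median SD per gene of 0.169 on the log2 scale, against 0.130, 0.110 and 0.101 in wandering control, mid-L3 control and mid-L3 high sugar larvae. Antimicrobial and other immune effector transcripts differed among the mid-L3 control arrays, with a median over 11 genes of 1.31 on array 1 and -1.69 on array 2 relative to the other arrays of that group.

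In limma's test, 651 of 8387 genes (7.76%) passed the interaction at an adjusted p under 0.05, 318 above 0 (3.79%) and 333 below 0 (3.97%). The median interaction over all genes was -0.025 on the log2 scale, its SD 0.476, and the median distance from the estimate to either end of its 95% interval 0.39. Of the called genes, 255 differed by at least 1 on the log2 scale and 63 by at least 2. The smallest called interaction was 0.23 in size and the median called one 0.87. Of the 12 arrays left out singly, wandering high sugar array 2 moved the call count most, to 1275, and it was 432 without mid-L3 control array 3 and 433 without mid-L3 high sugar array 3.

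Each stage's own diet effect places these genes. High sugar food changed 534 genes (6.37%) in wandering larvae, 299 up (3.57%) and 235 down (2.80%), and 1178 (14.0%) in mid-L3 larvae, 631 up (7.52%) and 547 down (6.52%). The control and high sugar arrays did not overlap for 21.5% of genes in wandering and for 39.5% in mid-L3 larvae. Among the 651 genes with an interaction, 379 passed the diet test in mid-L3 larvae alone, of which 177 rose and 202 fell there. A further 134 passed in wandering larvae alone, with 66 rising and 68 falling. Both diet effects passed with the same sign in 35, of which 15 changed more in wandering and 20 more in mid-L3 larvae, and with opposite signs in 44 (0.525% of genes tested). Neither diet effect passed on its own in 59. Across the 8387 genes the diet effects of the stages, which share no array, correlated at Pearson r = 0.303 and Spearman rho = 0.206, given as a description because genes are not independent.

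**Figure D1:**
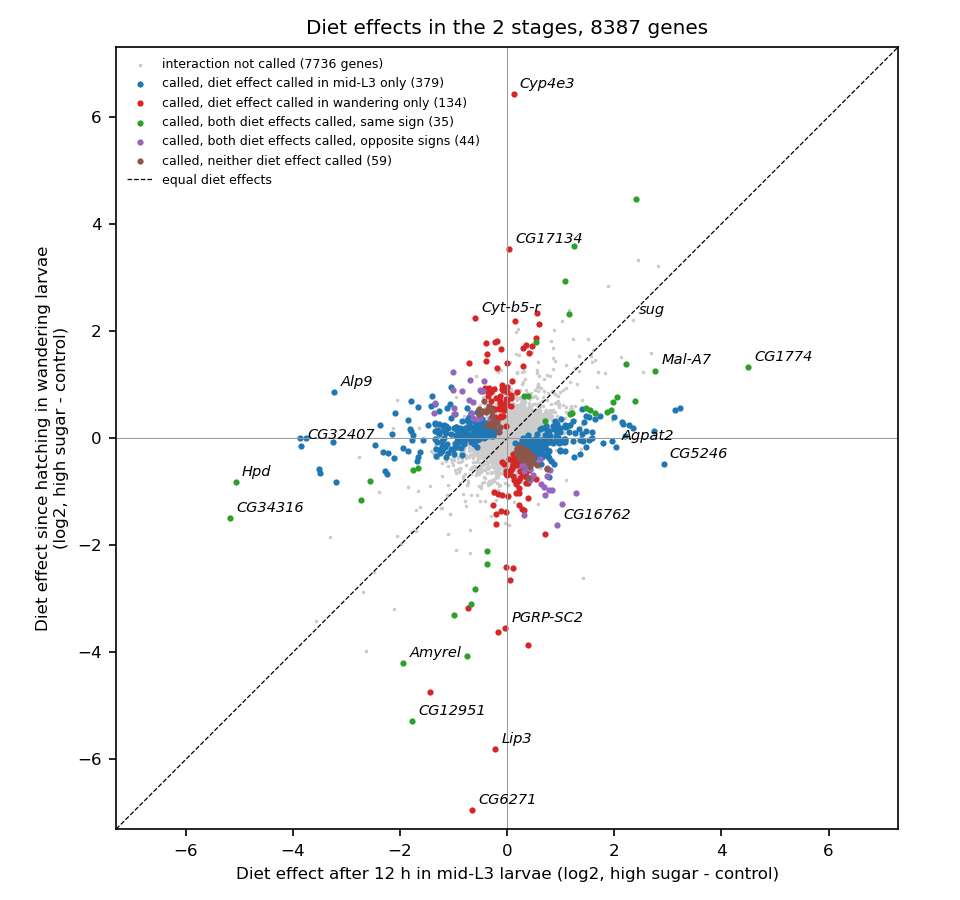
Diet effect of each of 8387 genes, as the log2 difference high sugar minus control, in mid-L3 (horizontal axis) and wandering (vertical axis) larvae, with colours for the class of the 651 called genes. The dashed line marks equal effects, and 379 of the called genes passed the diet test in mid-L3 larvae alone.

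Control levels differed between the stages, so the scale matters for some genes. On the linear scale of the deposited intensities, 15 of the 651 called genes had a difference of the opposite sign, and this is said of each such gene named here. In 46 of the 651 called genes both wandering groups lay under an intensity of 63, the level of the filter on dim genes. In 6 both mid-L3 groups did. Of all 8387 genes tested, 458 had both wandering groups under that level and 543 had both mid-L3 groups under it. At that level the constant of 12.7 added before taking logs makes a measured diet change smaller. Interactions of such genes (among them Hpd, CG13230, Cpr78Cc and Hex-C) are given as values, and no difference between the stages is read from them.

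Of 46 tested enzymes of detoxification, 10 were called above 0 and 0 below, 39 lay above 0, and their median interaction was 0.71 against -0.025 over all genes. In wandering larvae 11 of them rose and 3 fell, against 3.57% and 2.80% of all genes tested, while in mid-L3 larvae 1 rose and 12 fell, against 7.52% and 6.52%. Whole families, counted by symbol after their values were seen, were more mixed. Of 57 cytochrome P450 genes 11 were called above 0 and 2 below (median 0.33), and of 29 glutathione transferases 5 above and 0 below (median 0.30). The P450 genes had 7 rising and 6 falling in wandering larvae, and 2 rising and 18 falling in mid-L3 larvae. The glutathione transferases had 4 rising and 1 falling in wandering larvae, and 2 rising and 6 falling in mid-L3 larvae. Of 22 glucuronosyltransferases, which couple glucuronic acid or glucose to foreign compounds, 2 were called above and 2 below, with 11 above 0 and a median of -0.03. The 10 calls of the list became 22 without wandering high sugar array 2 and 8 to 13 without any 1 other array.

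Cyp4e3, a cytochrome P450, had the largest positive interaction. Its intensity was 43.1, 37.1 and 52 in wandering controls, 5045, 2663 and 5418 in sugar-fed wandering larvae, 69.3, 64.7 and 79.4 in mid-L3 controls and 72.5, 85.3 and 81.6 in sugar-fed mid-L3 larvae. The wandering groups lay far apart and the mid-L3 groups overlapped. The wandering controls lay under the filter level and both mid-L3 groups close above it. The added constant makes measured changes at such levels smaller, which limits the size read from this gene. The diet effect was 6.42 ± 0.22 (SE, log2) in wandering and 0.12 ± 0.22 in mid-L3 larvae, so the interaction was 6.30 (95% interval 5.61 to 6.99, adjusted p = 3.8e-07), a 78.6-fold difference of the changes. Cyp4d1, another P450, measured 1041, 691 and 662 in wandering controls and 2587, 2609.7 and 2274 in sugar-fed wandering larvae. Its mid-L3 intensities were 5883, 5082 and 5942 on control and 4468, 5316 and 4506 on high sugar food, which overlapped. The interaction of Cyp4d1 was 2.00 (1.53 to 2.47, adjusted p = 1.1e-04). Cyp309a1 moved in opposite directions, up by 0.90 in wandering larvae and down in mid-L3 larvae with a change of -0.51, for an interaction of 1.41 (adjusted p = 2.4e-04). Cyp304a1, a P450 outside the list, went the other way. It fell in wandering larvae (-1.02) and rose in mid-L3 larvae (1.29), for an interaction of -2.31 (-2.91 to -1.70, adjusted p = 2.6e-04). Cyt-b5-r, which encodes a cytochrome b5-related protein, measured 425, 487 and 341 in wandering controls and 2062, 1127 and 2347 on high sugar food, and its interaction was 2.84 (adjusted p = 1.0e-04). The antioxidant enzyme catalase, Cat, fell in mid-L3 larvae (-0.63) with a wandering value of -0.01 and an interaction of 0.62 (0.39 to 0.85, adjusted p = 0.00342).

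**Figure D2:**
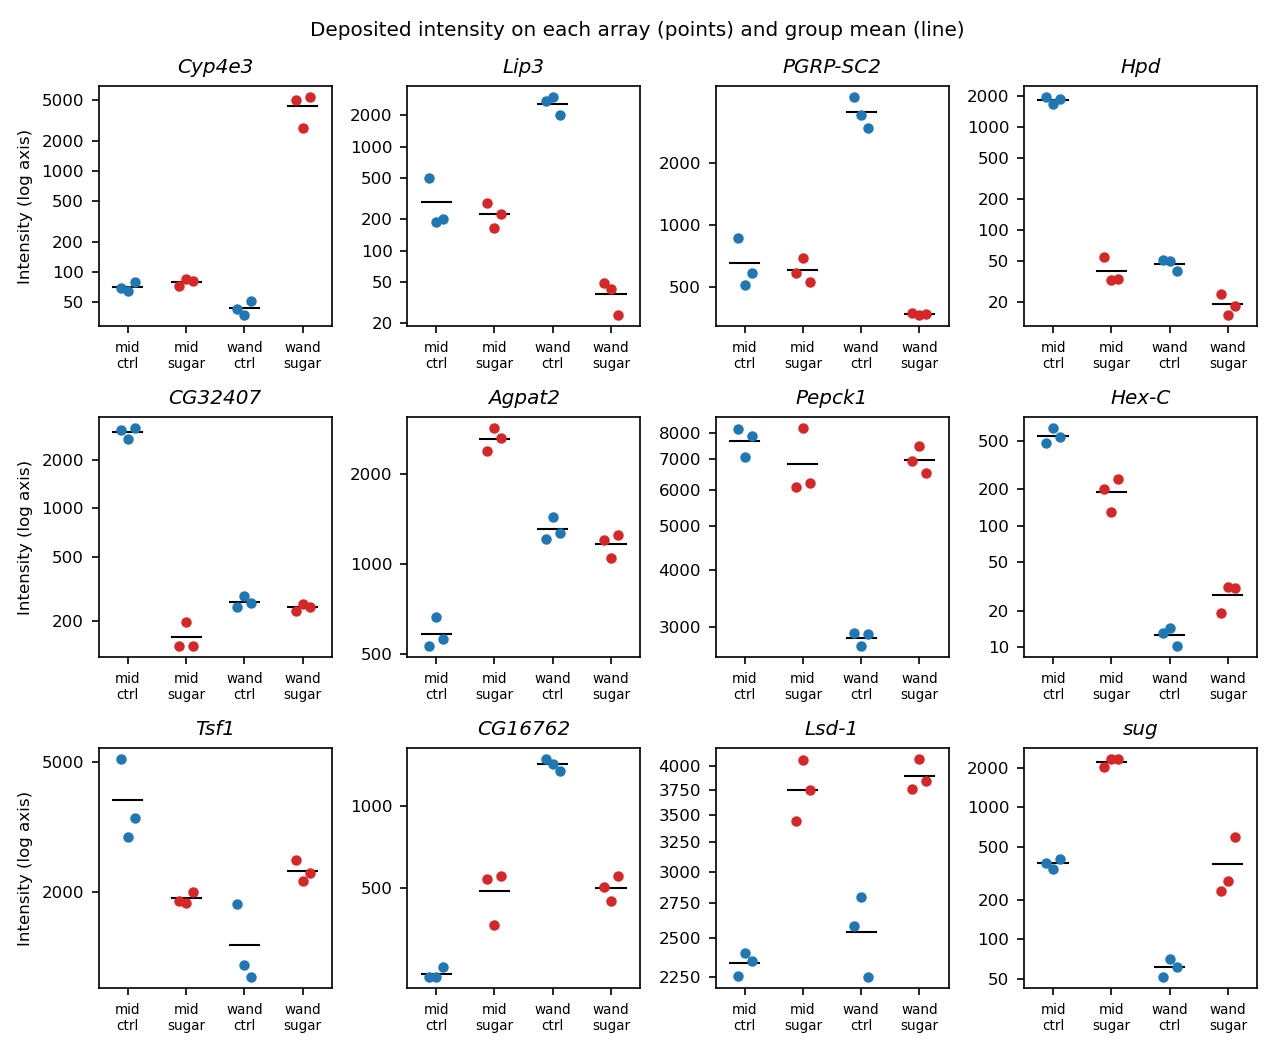
Deposited intensity on each of the 12 arrays, on a log axis, for 12 genes, with control arrays in blue, high sugar arrays in red and a line at each group's mean. Cyp4e3, Lip3 and PGRP-SC2 split by diet in wandering larvae and not in mid-L3 larvae, whereas CG32407 and Agpat2 split in mid-L3 larvae. Hpd splits in mid-L3 larvae and was dim on both foods in wandering larvae, so no stage difference is read from it.

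Of 18 tested genes of amino acid breakdown, 7 fell and 1 rose in sugar-fed mid-L3 larvae, against 6.52% and 7.52% of all genes tested. In wandering larvae 2 rose and 2 fell, against 3.57% and 2.80%. For the interaction, the shares over all genes to set beside every list here are 3.79% above and 3.97% below 0. For the interaction 6 were called above 0 and 1 below, with a median of 0.29, and without any 1 array 5 or 6 were called above 0. The count of 1 below 0 became 0 without any of 9 arrays and 2 without wandering high sugar array 2.

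Hpd, the 4-hydroxyphenylpyruvate dioxygenase of tyrosine breakdown, measured 1961, 1689 and 1889 in mid-L3 controls and 54.7, 33 and 33.9 after 12 h on high sugar food. In wandering larvae it was dim on both foods, with 52.2, 50 and 40.1 on control and 24.3, 15 and 18.7 on high sugar food. The mid-L3 change was -5.07 ± 0.17, the wandering change -0.82 ± 0.17 and the interaction 4.24 (3.72 to 4.76, adjusted p = 6.6e-07). Both wandering groups lay under the filter level. Faa, fumarylacetoacetase of the same pathway, measured 795, 899 and 978 against 410.1, 266 and 313 in mid-L3 larvae and 64.6, 57.5 and 51.3 against 109.7, 69.9 and 99.4 in wandering larvae. Its mid-L3 change was -1.27, its wandering change of 0.50 missed the test (adjusted p = 0.0988), and its interaction was 1.78 (adjusted p = 5.0e-04). The wandering control mean of Faa, 57.8, lay under the filter level, which limits the size read from it. Sardh, sarcosine dehydrogenase, fell in both stages, with changes of -2.57 in mid-L3 and -0.81 in wandering larvae, with an interaction of 1.77 (adjusted p = 4.1e-04). The purine enzyme xanthine dehydrogenase, ry, was at 256, 201 and 222 in mid-L3 controls and 53.3, 40.5 and 61.8 on high sugar food, and its wandering groups overlapped. The interaction of ry was 1.77 (1.26 to 2.27, adjusted p = 5.0e-04), and in the wider list of purine and one-carbon genes 1 of 14 was called above 0 and 0 below.

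Lipase genes lay mostly below 0. Of 9 tested members of a list of secreted lipases, 5 were called below 0 and 1 above, with a median of -0.97. In wandering larvae 6 fell and 1 rose, against 2.80% and 3.57% of all genes tested. In mid-L3 larvae 3 fell and 1 rose, against 6.52% and 7.52%, so falls on high sugar food were not confined to wandering larvae. Without any 1 array 4 or 5 were called below 0.

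CG6271, a predicted lipase, measured 3829.7, 4312 and 3232 in wandering controls and 26.4, 16.5 and 21.8 in sugar-fed wandering larvae. In mid-L3 larvae it measured 463, 117 and 225 on control and 219.7, 123 and 95.7 on high sugar food, and these overlapped. The wandering change was -6.95 ± 0.36, the mid-L3 change -0.66 ± 0.36 and the interaction -6.29 (-7.39 to -5.18, adjusted p = 1.1e-05). Lip3, an acid lipase gene, was at 2761, 3013 and 2003 in wandering controls and 48.3, 42.3 and 23.8 on high sugar food, and at 496, 188 and 202 against 284, 166 and 222 in mid-L3 larvae. Its interaction was -5.58 (-6.54 to -4.62, adjusted p = 1.1e-05). CG6283, a predicted lipase with high levels in both stages, fell in both, with changes of -3.09 in wandering and -0.67 in mid-L3 larvae, and its interaction was -2.43 (adjusted p = 1.1e-05).

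Gut peptidase genes showed both patterns, with 11 of 30 called below 0 and 2 above. Their median interaction was -0.43. In wandering larvae 6 rose and 10 fell, against 3.57% and 2.80% of all genes tested. In mid-L3 larvae 6 rose and 1 fell, against 7.52% and 6.52%. Calls below 0 numbered 9 to 12 without any 1 array, and the 2 calls above 0 became 1 without any of 9 of the 12 arrays.

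Jon99Ci, a Jonah-family serine peptidase, measured 1577, 1666 and 952 in wandering controls and 123, 90.6 and 122 on high sugar food, with overlapping mid-L3 groups of 2863, 2384 and 2765 against 2213, 2673 and 1996. Its interaction was -3.45 (adjusted p = 5.7e-06). CG12951, a predicted serine peptidase, fell in wandering larvae from 3194, 3271 and 3332 to 82.5, 132 and 66.2. In mid-L3 larvae it fell from 430, 260 and 274 to 74, 117 and 61.7. The changes were -5.29 in wandering and -1.78 in mid-L3 larvae, for an interaction of -3.52 (adjusted p = 6.1e-05). Its high sugar levels were similarly low in both stages, so the size of each fall is limited by its control level. The trypsin gene alphaTry rose in both stages and more in mid-L3 larvae, from 1603, 1308 and 1465 to 5908, 6099 and 6303 there and from 6085, 6527 and 5251 to 10013, 9583 and 7986 in wandering larvae. Its interaction was -1.40 (-1.64 to -1.16, adjusted p = 1.0e-05). The peptidase genes CG5246 and CG17134 are outside the list and its counts. CG5246, a predicted serine peptidase, rose in mid-L3 larvae from 653, 514 and 511 to 4495, 5576 and 4977. Its wandering groups overlapped, and its interaction was -3.40 (adjusted p = 6.2e-04). CG17134, a predicted aspartic peptidase, rose in wandering larvae from 291, 194 and 79.1 to 1619.7, 1537 and 2251, lay between 3081 and 3503 on every mid-L3 array, and had an interaction of 3.49 (adjusted p = 3.3e-04). The summed intensity of 10 midgut markers, which include peptidases named here, was 29991 to 35207 in wandering controls, 31500 to 36767 in sugar-fed wandering larvae, 35219 to 37425 in mid-L3 controls and 40511 to 43850 in sugar-fed mid-L3 larvae. None of the 10 had a group mean under 12.7, and 1 was called above and 4 below 0. Their part in these results was not tested.

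Of 7 tested peptidoglycan recognition proteins, 3 fell in wandering and 1 in mid-L3 larvae, against 2.80% and 6.52% of all genes tested. PGRP-SC2, an amidase that degrades bacterial peptidoglycan, measured 4203, 3443 and 2957 in wandering controls and 372, 362 and 369 on high sugar food, and 867, 508 and 580.4 against 582, 690.2 and 528 in mid-L3 larvae. The interaction was -3.51 (-4.01 to -3.01, adjusted p = 2.1e-06). PGRP-SB2, of the same family, measured 852, 1849 and 1809 in wandering controls and 78.2, 57.7 and 191 on high sugar food. In mid-L3 larvae it measured 65.8, 65.5 and 60.6 on control and 81.8, 90.0 and 92.5 on high sugar food. Its interaction was -4.26 (adjusted p = 1.9e-04), and its mid-L3 levels close to the filter level limit the size read from it. These 2 of the 7 were called, both below 0, and the median of the 7 was -0.30. Immune effectors such as antimicrobial peptides had 0 of 11 called in limma and 0 at an unadjusted p under 0.05, with the mid-L3 control arrays spread as given above.

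Carbohydrate handling showed interactions in both directions. Of 19 genes of gluconeogenesis, trehalose and glycogen, 4 were called above 0 and 3 below, and the median was -0.02. Without any 1 array there were 3 or 4 above and 2 or 3 below.

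Pepck1, the phosphoenolpyruvate carboxykinase that starts gluconeogenesis, measured 2910.1, 2716 and 2891 in wandering controls and 6924, 7472 and 6542 on high sugar food, and 8166, 7065 and 7863 against 6076, 8206 and 6208 in mid-L3 larvae. Its wandering change was 1.31 ± 0.11, its mid-L3 change -0.19 ± 0.11 and its interaction 1.51 (1.18 to 1.84, adjusted p = 6.8e-05). Fructose-1,6-bisphosphatase, fbp, had the same pattern, with changes of 0.78 and -0.13 and an interaction of 0.90 (adjusted p = 0.00885). A transporter of sugars, sut1, fell in mid-L3 larvae from 2309, 2057 and 2298 to 791, 922 and 881, while the wandering groups lay at 688, 639 and 661 and at 779, 694 and 723. Its wandering change of 0.15 missed the test (adjusted p = 0.371), and the interaction was 1.33 (adjusted p = 5.8e-05). Tret1-1, a trehalose transporter, rose in both stages, by 1.17 in mid-L3 and by 0.44 in wandering larvae, with an interaction of -0.73 (adjusted p = 5.0e-04). CG5171, a predicted trehalose phosphatase, rose in mid-L3 larvae from 64, 94.6 and 70.7 to 305, 419 and 483, and stood at 4286 to 7462 on every wandering array. Its wandering groups overlapped, and the wandering change of 0.26 missed the test (adjusted p = 0.407). Its interaction was -1.91 (adjusted p = 4.7e-04), with the opposite sign in linear intensity. Hex-C, a hexokinase, fell in mid-L3 larvae from 485, 641 and 538 to 202, 130.0 and 242 and gave an interaction of 2.01 (adjusted p = 7.7e-04). Its wandering intensities, 10.1 to 31, lay near the added constant of 12.7, so no stage difference is read from it. Hex-A, another hexokinase, measured 928, 757 and 849 in mid-L3 controls and 1227, 1086 and 1239 on high sugar food, and 515, 506 and 428 against 469, 471 and 492 in wandering larvae. It rose by 0.51 in mid-L3 larvae, its wandering groups overlapped, and its interaction was -0.55 (-0.86 to -0.24, adjusted p = 0.0365). That call was lost without wandering control 1 or 2, wandering high sugar 1 or 3, mid-L3 control 2 or 3 or mid-L3 high sugar 1 or 3 (adjusted p = 0.0634 to 0.0984), and in the values as deposited or with median-centred arrays. Pfrx, the 6-phosphofructo-2-kinase that makes an activator of glycolysis, rose by 0.57 in mid-L3 larvae from 882, 889 and 849 to 1253, 1323 and 1268, and its wandering groups, at 251, 249.8 and 228 and at 255, 249.5 and 182, overlapped. Its interaction was -0.70 (-1.07 to -0.32, adjusted p = 0.0261), and the call was lost without wandering control 1, any mid-L3 control or any mid-L3 high sugar array (adjusted p = 0.0514 to 0.0661). Of 12 tested genes of glycolysis, 1 was called above 0 (Hex-C) and 2 below (Hex-A and Pfrx), with a median interaction of 0.05. Without single arrays 1 to 2 were called above and 0 to 2 below. Amyrel, an amylase-related gene, fell in both stages, with changes of -4.20 in wandering and -1.94 in mid-L3 larvae, and its interaction of -2.26 (adjusted p = 5.7e-05) had the opposite sign in linear intensity. The maltase gene Mal-A7 rose in both, by 2.76 in mid-L3 and by 1.26 in wandering larvae, with an interaction of -1.50 (adjusted p = 0.00494). The wandering control mean of Mal-A7, 37.7, lay under the filter level, which limits the size read from it. Of 16 carbohydrase genes Amyrel and Mal-A7 were called, both below 0, and without wandering control array 3 the calls below 0 numbered 5.

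Fat metabolism was split between arms. Of 13 lipogenesis genes 3 were called above 0 and 1 below, of 12 triglyceride storage genes 0 above and 3 below, and of 15 genes of lipolysis and fatty acid oxidation 4 above and 4 below. Their medians were 0.34, 0.08 and 0.26. Some lipases called below 0, Lip3 among them, are in the last of these lists and also in that of secreted lipases. Without wandering high sugar array 2 the lipogenesis calls above 0 became 6. The storage calls became 1 without wandering control 2, mid-L3 control 1 or 3 or mid-L3 high sugar 2. Calls below 0 for lipolysis and oxidation became 2 without any 1 of the mid-L3 control arrays or mid-L3 high sugar 1 or 2.

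Agpat2, an acyltransferase on the way to triglyceride, rose in mid-L3 larvae from 529, 664 and 558 to 2387, 2853 and 2644, and its wandering groups overlapped at 1214, 1431 and 1273 against 1199, 1043 and 1249. The mid-L3 change was 2.03 ± 0.10, the wandering change -0.16 ± 0.10 and the interaction -2.18 (-2.50 to -1.86, adjusted p = 2.7e-06). The gene whd, a carnitine palmitoyltransferase that admits fatty acids to mitochondria, rose in mid-L3 larvae from 1189, 1028 and 1184 to 3034, 3889 and 3107 and stood at 2680.2 to 3519.6 on the wandering arrays, for an interaction of -1.34 (adjusted p = 1.2e-04). Its dimmer probe set, at a mean intensity of 7.73, gave -0.03. Acetyl-CoA carboxylase, ACC, which commits carbon to fatty acid synthesis, rose in mid-L3 larvae from 2261, 2991 and 2136 to 5337, 5063 and 5809. In wandering larvae it lay at 143 to 213 with overlapping groups, and the interaction was -0.87 (-1.25 to -0.49, adjusted p = 0.00899). Malic enzyme, Men, rose in wandering larvae by 1.59 with a mid-L3 value of 0.41 (adjusted p = 0.107) and an interaction of 1.18 (adjusted p = 0.00548), whose sign is opposite in linear intensity. Isocitrate dehydrogenase, Idh, fell in mid-L3 larvae (-0.60) and had an interaction of 0.81 (adjusted p = 1.0e-04). Acox3, a peroxisomal acyl-CoA oxidase, rose in wandering larvae (0.69) with a mid-L3 value of -0.31 (adjusted p = 0.110) and an interaction of 1.00 (adjusted p = 0.00297).

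Lsd-2, a perilipin of lipid droplets, rose in mid-L3 larvae by 0.39, and its interaction was -0.51 (-0.78 to -0.24, adjusted p = 0.0228). Leaving out wandering control 2, mid-L3 control 1, mid-L3 control 3 or mid-L3 high sugar 2 ended this call, with adjusted p from 0.0537 to 0.0571.

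**Figure D3:**
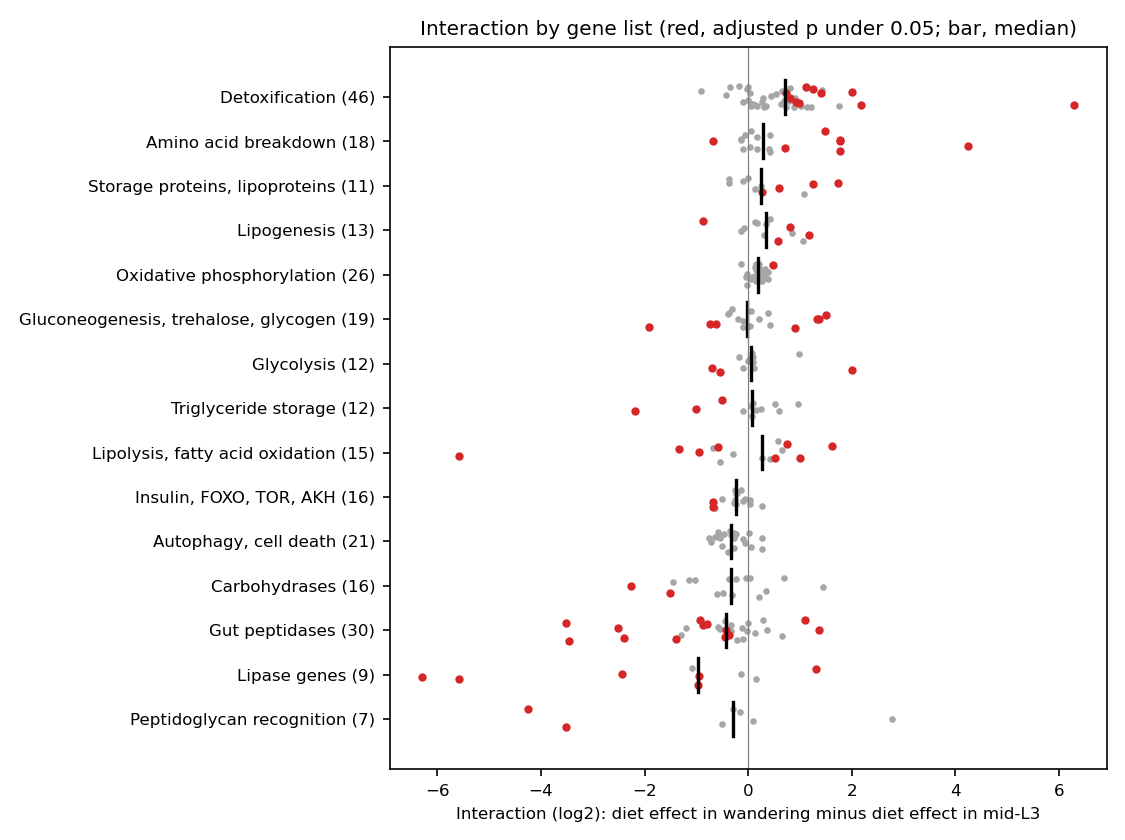
Interaction of each tested gene in 15 gene lists, as the log2 difference of the diet effects, with genes past the adjusted p threshold in red and a bar at each list's median. Detoxification lies to the positive side with a median of 0.71, gut peptidases and secreted lipases to the negative side with medians of -0.43 and -0.97.

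Opposite diet effects were called for 44 genes, of which 25 rose in mid-L3 larvae and fell in wandering larvae, and 19 did the reverse. The count is sensitive to single arrays, with a low of 25 without mid-L3 control array 1 or mid-L3 high sugar array 3 and a high of 129 without wandering high sugar array 2. It was also 26 or 27 without wandering control 3, wandering high sugar 1, mid-L3 control 3 or mid-L3 high sugar 1.

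CG16762 had the largest interaction in size of the 8 such genes plotted here. Its intensity fell from 1493, 1435 and 1346 to 503, 449 and 555 in wandering larvae and rose from 234, 234 and 255 to 540.4, 366 and 553 in mid-L3 larvae. The diet groups lay apart in both stages, and the interaction was -2.55 (-2.97 to -2.13, adjusted p = 7.3e-06). CG3604 fell from 1474, 1143 and 979.8 to 553, 406 and 659 in wandering larvae and rose from 726, 864 and 790.1 to 1783, 1706 and 1547 in mid-L3 larvae, with an interaction of -2.27 (adjusted p = 6.2e-05). CG5770 and CG6996 moved the same way, with interactions of -1.74 (adjusted p = 2.9e-04) and -1.81 (adjusted p = 4.5e-04). In the reverse direction, Tsf1, the secreted iron carrier transferrin, rose from 1842, 1195 and 1095 to 2501, 2156 and 2286 in wandering larvae and fell from 5109, 2954 and 3378 to 1882, 1854 and 1996 in mid-L3 larvae. Its interaction was 1.73 (1.15 to 2.32, adjusted p = 0.00152), and its 2 other probe sets gave 1.96 and, at a mean intensity of 6.44, 0.20. CG33307 had an interaction of 2.24 (adjusted p = 0.00196) and CG33281 one of 1.92 (adjusted p = 0.00301), both with a rise in wandering and a fall in mid-L3 larvae. Idgf2, an imaginal disc growth factor of the chitinase-like family, rose in wandering larvae by 0.36 and fell in mid-L3 larvae (-0.57), for an interaction of 0.93 (adjusted p = 3.6e-04).

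**Figure D4:**
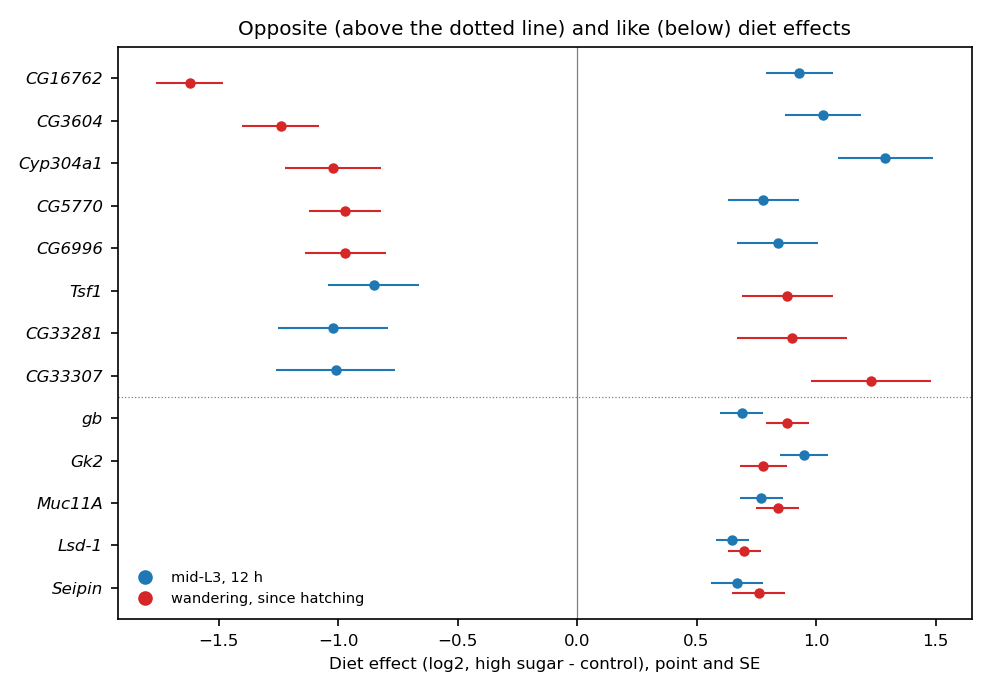
Diet effect, as the log2 difference high sugar minus control with its SE, in wandering and mid-L3 larvae for 8 genes with opposite effects and 5 with like effects. The SE comes from a spread shared by the 4 groups and is the same in both stages of a gene. The 8 opposite genes lie on different sides of 0 in the 2 stages, and the 5 like genes lie above 0 at nearly the same distance.

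Some effects were alike within a stated margin. Of 152 genes whose diet effects passed in both stages with the same sign, 45 (0.537% of genes tested) had a 95% interval of the interaction inside 0.5 on either side of 0, 30 rising and 15 falling. The interaction was called for 35 of the 152, and neither held for 72. Without single arrays the 45 became 14 to 99, with 99 without wandering high sugar array 2 and 14 without wandering control array 3, and 15 to 25 without wandering control 1, the other wandering high sugar arrays, mid-L3 control 1 or 3 or any mid-L3 high sugar array.

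Lsd-1, a perilipin of fat body lipid droplets, measured 2584, 2797 and 2248 in wandering controls and 3755, 4078 and 3842 on high sugar food, and 2257, 2406 and 2351 against 3446, 4064 and 3743 in mid-L3 larvae. The groups lay apart in both stages by nearly the same distance. Its changes were 0.70 and 0.65, and its interaction 0.05 (-0.16 to 0.27). Gk2, a glycerol kinase, rose by 0.78 in wandering and by 0.95 in mid-L3 larvae, with an interaction of -0.17 (-0.47 to 0.14). Seipin, a lipid droplet assembly protein, gave 0.09 (-0.26 to 0.44), the gene gb 0.19 (-0.08 to 0.46) and the mucin Muc11A 0.07 (-0.22 to 0.36).

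Of 11 tested regulators of sugar sensing, 2 rose in wandering and 3 in mid-L3 larvae, against 3.57% and 7.52% of all genes tested. The factor sug measured 51.5, 70.7 and 61.7 in wandering controls and 234, 276 and 599 on high sugar food, and 380.2, 341 and 408 against 2028, 2316 and 2333 in mid-L3 larvae. It rose in both stages, by 2.20 and 2.35, and its interaction of -0.16 had an interval from -0.90 to 0.59 (adjusted p = 0.840), too wide to show that the changes were alike. Mondo rose by 0.93 and 0.63, with an interaction of 0.30 (-0.10 to 0.71, adjusted p = 0.375) that passed without wandering high sugar array 2 (adjusted p = 0.0360). For the interaction 1 of the 11 was called, cbt, the zinc finger factor cabut. It rose in mid-L3 larvae from 1885, 1753 and 1772 to 2676, 3324 and 3298 and overlapped between foods in wandering larvae, with an interaction of -0.77 (-1.11 to -0.44, adjusted p = 0.00799). In the insulin, FOXO, TOR and adipokinetic hormone list 0 of 16 were called above 0 and 2 below (1 to 3 without any 1 array), among them the kinase Pdk1 at -0.67 (adjusted p = 0.0135). The hormone receptor AkhR rose by 1.36 and 1.09, with an interaction of 0.27 (-0.14 to 0.69, adjusted p = 0.447). A dimmer AkhR probe set gave -0.70.

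Several genes of sugar and fat metabolism missed the interaction test. Fatty acid synthase, FASN1, measured 1513, 1142 and 721 in wandering controls and 2602, 1365 and 3381 on high sugar food, and 12236, 12925 and 12369 against 13506, 13769.5 and 14322 in mid-L3 larvae. The mid-L3 values lay close to 15822, the highest value on any array. Its interaction was 1.06 (0.19 to 1.92, adjusted p = 0.137), and without wandering high sugar array 2, the low one of its group, the adjusted p was 0.00732. Glycerol-3-phosphate dehydrogenase, Gpdh1, and the desaturase Desat1 had interactions of 0.99 (adjusted p = 0.123) and 0.42 (adjusted p = 0.242), with 4.9e-04 and 0.0262 as adjusted p without that array. The other probe sets of Gpdh1 gave 1.15, -0.13 and 1.70. Trehalose-6-phosphate synthase, Tps1, had an interaction of 0.42 (0.06 to 0.78, adjusted p = 0.157). Trehalase, Treh, had 0.38 (0.08 to 0.69, adjusted p = 0.128), and the triglyceride lipase brummer, bmm, -0.68 (-1.21 to -0.15, adjusted p = 0.124). Sodh1, a sorbitol dehydrogenase, fell in both stages, with changes of -1.31 and -1.22, with an interaction of -0.09 (-0.74 to 0.56).

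Other genes with large interactions have no role given here. CG32407 fell in mid-L3 larvae from 3069, 2692 and 3140.4 to 141, 199.6 and 140.1, with wandering values of 232 to 288 on both foods, and its interaction of 3.71 had the smallest adjusted p of the genes named (2.2e-07). CG17362 had 3.76 (adjusted p = 2.7e-05) and CG10514 had 3.17 (adjusted p = 6.2e-04), each with a fall in mid-L3 larvae and overlapping wandering groups. CG13230 fell in mid-L3 larvae from 2261, 1875 and 2404 to 147, 106 and 92.9 and was dim in wandering larvae, with an interaction of 3.88 (adjusted p = 3.0e-06). CG34316 fell in both stages, with changes of -5.17 in mid-L3 and -1.49 in wandering larvae, for 3.68 (adjusted p = 4.6e-05). Its intensity went from 1645, 798 and 1502 to 17.9, 35.7 and 18 in mid-L3 larvae. In wandering larvae it went from 141, 114 and 106 to 28.9, 23.7 and 36.4. The size of each fall is limited by its control level, since the high sugar groups lay under the filter level in both stages. CG1774 rose in both, in mid-L3 larvae from 182, 242 and 154 to 5430.3, 5581 and 5716, for -3.18 (adjusted p = 7.8e-04). Its wandering arrays went from 102, 104 and 98.4 to a scattered 289, 141 and 517. The gene cDIP fell in wandering larvae from 350.3, 302 and 309 to 34.5, 38.2 and 38.3 and overlapped between foods in mid-L3 larvae, for -2.71 (-3.03 to -2.38, adjusted p = 6.6e-07). Alp9, an alkaline phosphatase, fell in mid-L3 larvae from 1159, 1187 and 892 to 96.3, 82.6 and 90.7, a change of -3.23. Its wandering groups, 211, 408 and 175 against 783, 261 and 457, overlapped. The wandering change of 0.86 missed the test (adjusted p = 0.165) and adds to its interaction of 4.09 (adjusted p = 2.5e-04). CG4716 rose in mid-L3 larvae by 3.22 for -2.66 (adjusted p = 0.00785), with the opposite sign in linear intensity. Its wandering groups overlapped, and the wandering change of 0.57 missed the test (adjusted p = 0.400).

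Secreted lipid carriers and structural genes gave smaller sets. Of 11 storage proteins and lipoproteins 4 were called above 0 and 0 below, Tsf1 among them, with a median of 0.24, and 2 were without wandering control 3, wandering high sugar 1 or mid-L3 control 2 or 3. Apoltp, a lipid transfer apolipoprotein, rose in wandering larvae from 204, 328 and 198 to 418, 421 and 505 and had an interaction of 1.25 (0.74 to 1.76, adjusted p = 0.00554). Of 32 cuticle and chitin genes 2 were called above 0 and 5 below, the latter 0 to 6 without any 1 array and 0 without mid-L3 high sugar array 3. Among them Cpr78Cc, a cuticle protein that was dim in wandering larvae, fell in mid-L3 larvae (-1.79) with an interaction of 1.93 (adjusted p = 1.0e-04). Of 12 glue genes 1 was called, ng2, which rose in both stages, by 2.94 in wandering and by 1.08 in mid-L3 larvae, for 1.86 (adjusted p = 0.00787) and the opposite sign in linear intensity. The wandering control mean of ng2, 50.1, lay under the filter level, which limits the size read from it. The salivary gland marker sum, which includes ng2, was 8937 to 10817 in mid-L3 controls and 19330 to 21999 in sugar-fed mid-L3 larvae. The sum of 16 testis markers was 2469.8 to 2892.1 and 3293.1 to 3459.8. Both sums were higher in wandering larvae, and their part in the mid-L3 diet effects was not tested.

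Some lists had few or no calls. Of 26 oxidative phosphorylation genes 1 was called above 0, Cyt-c1 of respiratory complex III, at 0.48 (0.29 to 0.67, adjusted p = 0.00494), and 22 lay above 0, with a median of 0.18. Without wandering high sugar array 2 the calls were 11, and 1 to 3 without any 1 other array. For 21 autophagy and cell death genes limma called 0, with 10 at an unadjusted p under 0.05 and a median of -0.34, and without the same array 7 were called below 0, and 2 without mid-L3 control array 1. It called 0 of 47 mitochondrial ribosome genes, with 5 at an unadjusted p under 0.05 and a median of 0.18, and 0 of 11 citric acid cycle genes and 0 of 25 ribosome biogenesis genes, with 0 and 1 at that level.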

How the data were processed

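Biotin-labelled cRNA from 2 ug of total RNA of whole male larvae was hybridised to Affymetrix arrays, per the labels' protocols. The authors deposited, for every array, a linear intensity for each probe set. Which software summarised and scaled the probes is not given in the sources used here. Array medians were 62.2 to 82.4, no depth applies, and the 3 arrays per group limit the precision.

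Of 18952 probe sets, 183 controls were left out, and 13647 had 1 gene symbol in the platform table, of which 13544 were updated through RefSeq identifiers. The brightest probe set stood for a gene (11982 genes). A gene was tested if its mean lay above the 30th percentile, an intensity of 63. After adding 12.7, the 20th percentile over every value, intensities were put on the log2 scale and quantile normalized, so folds of dim genes are understated. The 4 group means were fitted over the 12 arrays in limma 3.58.1 (R 4.3.3, eBayes with an intensity trend, residual df 8), Benjamini-Hochberg over 8387 genes, threshold 0.05. The 4 groups shared a single estimate of spread per gene, so a gene's SE was the same in both stages. The wider spread of the wandering groups is not in these SEs. Figures used matplotlib 3.10.9.

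The comparison, gene lists and genes named were chosen with earlier results of these data known. The rule for names took the 12 largest interactions per direction among called genes with a stage whose diet arrays lay apart, up to 3 called members per list, 8 opposite and 8 like genes with the largest smaller effect, and 28 fixed genes. The text names part of these. Lists are given as counts and medians, with no test of a list.

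On simulated data with 100 genes changed by 1 and 100 by 0.5 (log2) among 8387, the interaction found 77 and 14, none in the wrong direction, and 8 of 99 calls were unchanged genes. The simulated noise was independent between arrays and equally wide in all 4 groups, with no other diet effect. In the data the median SD per gene was 0.101 to 0.169 by group, so these rates need not hold there. Replicate numbers were checked as pairs on deviations from group means: same-numbered arrays correlated at -0.262 to 0.262 and others at -0.298 to 0.389, so the numbers were not taken as pairs. In the control arrays alone, the 3 same-numbered pairs across stages correlated at 0.122 to 0.178 and pairs of unlike number at -0.181 to 0.073. Alternatives were other normalizations, constants, filters, probe set rules, variance settings, array weights, the replicate number as a block, and each array left out. Leaving out both control arrays numbered 1, a replicate block in the control arrays alone, and testing genes above the filter level in both stages, were added after seeing the data.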

Additional observations from a re-analysis of the deposited data

Results flagged for a closer look

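For the genes named here that passed the interaction, limma's test of the difference itself found unequal diet effects in the stages at an adjusted p under 0.05, which is why they are listed for a closer look. Where both foods left a gene dim in one stage (Hpd, CG13230, Cpr78Cc and Hex-C), no stage difference is read from its value. CG34316 lay under the filter level on high sugar food in both stages, which limits the size read from it. Cyp4e3 and PGRP-SB2 lay close to that level on both foods in mid-L3 larvae, which limits the sizes read from them. Mal-A7, Faa and ng2 had wandering control means under that level, with the same limit. On the log2 scale, as the wandering minus the mid-L3 diet effect, the interaction was 6.30 for Cyp4e3, 4.24 for Hpd, 4.09 for Alp9, 3.88 for CG13230, 3.76 for CG17362, 3.71 for CG32407, 3.68 for CG34316, 3.49 for CG17134 and 3.17 for CG10514. It was 2.84 for Cyt-b5-r, 2.24 for CG33307, 2.01 for Hex-C, 2.00 for Cyp4d1, 1.93 for Cpr78Cc, 1.92 for CG33281, 1.86 for ng2, 1.78 for Faa, 1.77 for Sardh and 1.77 for ry. Smaller values above 0 were 1.73 for Tsf1, 1.51 for Pepck1, 1.41 for Cyp309a1, 1.34 for Irp-1B, 1.33 for sut1, 1.25 for Apoltp, 1.18 for Men and 1.00 for Acox3. The smallest above 0 were 0.93 for Idgf2, 0.90 for fbp, 0.81 for Idh, 0.62 for Cat and 0.48 for Cyt-c1.

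Below 0, the interaction was -3.18 for CG1774, -3.40 for CG5246, -3.45 for Jon99Ci, -3.51 for PGRP-SC2, -3.52 for CG12951, -4.26 for PGRP-SB2, -5.58 for Lip3 and -6.29 for CG6271. It was -2.18 for Agpat2, -2.26 for Amyrel, -2.27 for CG3604, -2.31 for Cyp304a1, -2.43 for CG6283, -2.55 for CG16762, -2.66 for CG4716 and -2.71 for cDIP. Smaller in size were -1.34 for whd, -1.40 for alphaTry, -1.50 for Mal-A7, -1.74 for CG5770, -1.76 for MtnD, -1.81 for CG6996, -1.88 for MtnB, -1.91 for CG5171 and -1.98 for MtnA. The smallest in size were -0.51 for Lsd-2, -0.55 for Hex-A, -0.67 for Pdk1, -0.70 for Pfrx, -0.73 for Tret1-1, -0.77 for cbt and -0.87 for ACC.

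Probe sets without a single gene symbol took no part in the counts above. Tested with all others, 81 of 1939 passed the interaction (4.18%), 39 above and 42 below 0. No gene names are given for them.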

How the results depend on the processing

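In the alternatives fitted per gene, no called gene that was tested there changed the sign of its interaction. The fit of every probe set singly was not checked for sign. Of the 64 called genes named here, 59 kept their call under every alternative in which they were tested (25 to 27), and ACC, Hex-A, Lsd-2, MtnB and Pfrx lost it under some. Of 16 uncalled genes named, 9 passed under some. Without each array in turn, 432 to 1275 genes were called, 214 to 576 above and 216 to 699 below 0, 25 to 129 with opposite diet effects and 14 to 99 with like effects. Array weights, whose estimation stopped before its tolerance, called 2206 (1002 above, 1204 below 0), with 307 opposite and 291 like effects. Like effects were 29 in the values as deposited, 28 without a filter on dim genes and 25 with one weight per stage. Without both control arrays numbered 1 they were 18, with 221 calls below 0 and 24 opposite effects, and the adjusted p of ACC was 0.0561. A size of at least 1 left 255 calls (139 and 116). With the replicate number as a block 556 genes were called (271 above and 285 below 0), 536 of them among the 651, and 3 of 12 arrays correlated best with an array of their own number. A replicate block in the control arrays alone, chosen after seeing the data, called 566 (277 and 289), 544 of them among the 651, with 39 opposite and 35 like effects, and ended the call of Pfrx. In small uncalled interactions the sign turned. In the values as deposited and with median-centred arrays, Lsd-1 gave -0.06 and -0.04, Muc11A -0.09 and -0.07, and Sodh1 0.17 and 0.19. Sodh1 also gave 0.14 with array weights, 0.17 without both control arrays numbered 1 and -0.37 to 0.21 without single arrays. With a constant of 1 sug gave 0.02, and without single arrays -0.54 to 0.09. Seipin gave -0.10 with the constant 5 times larger, -0.02 without both control arrays numbered 1 and -0.03 to 0.18 without single arrays. Muc11A gave -0.01 to 0.20 without single arrays, and AkhR -0.21 from the mean of its probe sets. The cause of these changes was not tested. Signal over background limits dim genes, and no detection calls were analysed here.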

Other observations

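Genes of metal handling, picked after their values were seen, also differed between the stages. Metallothioneins bind zinc and copper in the gut. MtnA had a mean intensity of 7079 ± 992 (SD, n = 3) in wandering controls and 1467 ± 224 on high sugar food, and 6681 ± 85.2 against 4959 ± 355 in mid-L3 larvae. Its interaction was -1.98 ± 0.12 (SE, log2, adjusted p = 1.4e-06 in limma). MtnD fell in wandering larvae, from 3666 ± 376 to 1478 ± 159, and rose in mid-L3 larvae, from 3041 ± 163 to 3776 ± 129, with an interaction of -1.76 ± 0.11 (adjusted p = 1.2e-06). MtnB rose in mid-L3 larvae by 1.78 with a wandering change of -0.09, for an interaction of -1.88 (adjusted p = 0.0228, and 0.0548 to 0.0554 without wandering control 3, wandering high sugar 3, mid-L3 control 2 or 3 or mid-L3 high sugar 2). MtnC missed the threshold at -1.59 (adjusted p = 0.0517), and without mid-L3 control 1 or 2 it passed, with 0.0249 and 0.0347. Of the 4 tested genes of the family, 3 were called below 0. Irp-1B, which encodes an iron regulatory protein, moved the other way, with a change of 0.88 in wandering and of -0.46 in mid-L3 larvae and an interaction of 1.34 ± 0.13 (adjusted p = 6.1e-05). Tsf1, described above, has the same signs as Irp-1B.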
